A study of Mus musculus with 4 samples.

Results

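The Reg family lectins of the mouse intestine were followed by name through single cell libraries of small intestinal crypts. All 7 members with these symbols were taken, Reg1, Reg2, Reg3a, Reg3b, Reg3d, Reg3g and Reg4, out of 27998 genes in the count matrices, whatever their level. They were described in 4 libraries, by genotype and by cell class, and beside the level found in classes of cells that are not known to make them.

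Reg proteins are small secreted C-type lectins. Reg3g binds peptidoglycan and kills Gram-positive bacteria, Reg3b acts mainly on Gram-negative bacteria, and both keep bacteria away from the gut surface. Their genes are known to be induced by microbial signals through MyD88 and by the cytokine IL-22 through STAT3, and pancreatic proteases such as trypsin can trim the secreted proteins. Reg4 is a more distant member, used as a marker of enteroendocrine cells in the small intestine and of the secretory cells at the crypt base of the colon, while Reg1, Reg2 and Reg3d are known mostly from the exocrine pancreas.

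The cells came from 8-week-old mice. In the mice labelled IEC-KO, the amino acid transporter gene Slc7a5 was floxed and Villin-Cre, whose driver is active throughout the intestinal epithelium, was to delete it. Littermates labelled fl/fl carried the floxed alleles without Cre. Live EpCAM+ CD45- cells were sorted from enriched crypts and put through the 10x Genomics 3′ kit (version 2), 2 libraries per genotype. The labels name 4 mice without saying how they were divided among the libraries, so p values measure the spread between these libraries only, which may be technical.

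The libraries labelled fl/fl held 3633 and 3217 cell barcodes and those labelled IEC-KO 10004 and 9644, with 87922473 to 127094508 unique molecular identifiers (UMIs, each 1 captured transcript) per library. The median cell had 22242 and 32549 UMIs in the libraries labelled fl/fl and 6699.5 and 9717.5 in those labelled IEC-KO. The count of the targeted gene did not settle whether the labels hold, being higher where Slc7a5 was to be deleted. Slc7a5 had 140 and 128 UMIs in the libraries labelled fl/fl and 350 and 615 in those labelled IEC-KO (log2 fold change 1.11, standard error 0.13, edgeR adjusted p = 1.0e-07), and counts near the 3′ end do not show whether the floxed part is present, so each direction below rests on the labels.

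Cells in which alpha-defensin (Defa) genes took 30% or more of the UMIs were taken as Paneth cells (2020, 1950, 2019 and 2336 cells, in the order fl/fl 1, fl/fl 2, IEC-KO 1 and IEC-KO 2, which is kept throughout). Among cells under 20%, summed markers gave 723, 556, 4469 and 4193 goblet cells, 99, 82, 259 and 196 enterocytes, 12, 5, 83 and 63 enteroendocrine cells, 13, 20, 124 and 86 tuft cells, and 184, 154, 315 and 268 cycling cells. These classes are ranges of a score rather than clusters. Between 73 and 730 cells per library lay near the goblet limit, and 89 to 1305 cells with 20 to 30% Defa belong to no class. A further 462, 361, 1430 and 1284 cells under 20% Defa were in no class either. The goblet marker score, in UMIs per 10000 outside Defa genes, had a median of 741 to 895 in goblet cells and 208 to 247 in Paneth cells, and the score of the other Paneth markers 178 to 218 in goblet cells against 891 to 1351 in Paneth cells. Of the enteroendocrine cells, 10, 3, 45 and 34 were also above the goblet limit, and of the tuft cells 7, 9, 59 and 49. The lowest Defa share of any cell was 1.57 to 3.50%, so Paneth cell RNA was found in every cell of every class.

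Reg1, Reg2, Reg3a, Reg3b, Reg3d and Reg3g lie side by side within 98.2 kb of chromosome 6 (78370657 to 78468872, GRCm38), Reg3b at one end on the plus strand (78370657 to 78373466) and Reg3g at the other on the minus strand (78466269 to 78468872). Reg4 lies apart on chromosome 3 (98222156 to 98236748, plus strand). No pair of the 21 shared a stretch of 50 bases in its transcripts, so a read of that length would separate the members. The promoters of Reg3b, Reg3g and Reg4 are shown because the Reg3b and Reg3g levels varied together from cell to cell while Reg4 did not follow them. Each runs from 250 bases before the RefSeq start (GRCm38.p6) to 10 bases after it, 5′ to 3′, with capitals for the longest run shared by Reg3b and Reg3g. For Reg3b the gene span given above starts at 78370657, so most of its window (78370635 to 78370894) lies inside that span. The annotations thus differ on the Reg3b start, and all distances below are from the RefSeq start.
Reg3b (chr6:78370635-78370894, + strand): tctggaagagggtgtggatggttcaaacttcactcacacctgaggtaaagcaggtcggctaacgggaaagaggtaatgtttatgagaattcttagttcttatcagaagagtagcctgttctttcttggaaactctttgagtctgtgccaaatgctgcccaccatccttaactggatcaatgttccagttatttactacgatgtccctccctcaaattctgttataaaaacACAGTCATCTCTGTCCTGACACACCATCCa
Reg3g (chr6:78468865-78469124, - strand): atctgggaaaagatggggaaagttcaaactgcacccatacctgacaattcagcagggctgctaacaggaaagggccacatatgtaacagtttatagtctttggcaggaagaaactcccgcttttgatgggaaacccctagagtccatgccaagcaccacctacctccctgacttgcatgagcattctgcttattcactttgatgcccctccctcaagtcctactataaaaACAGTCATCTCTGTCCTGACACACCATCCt
Reg4 (chr3:98221906-98222165, + strand): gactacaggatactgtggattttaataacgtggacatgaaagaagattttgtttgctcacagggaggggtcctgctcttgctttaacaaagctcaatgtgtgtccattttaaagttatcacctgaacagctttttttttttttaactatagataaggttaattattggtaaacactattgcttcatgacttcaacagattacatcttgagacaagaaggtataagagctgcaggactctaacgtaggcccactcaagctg
The shared run of 29 bases began 20 bases before the start in both Reg3 genes. Over the 300 bases of the RefSeq windows, Reg3b and Reg3g were 69.0% identical in a global alignment, and the other 20 pairs of members between 46.8 and 57.9%. The letters TATAAA, searched on both strands, stood 29 bases before the start in Reg3b and 27 in Reg3g, and were found in 4 of the 7 members and in 13.6% of all 32851 promoters. TTCNNNGAA, the core to which STAT factors bind, was found in Reg3b (129 bases before the start) and Reg3d and in 8.30% of promoters. TGATGNAA, a C/EBP-ATF form, was found in none of the 7 windows and in 3.97% of promoters.

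Levels are given per 10000 UMIs outside the Defa genes, since Defa transcripts took a median of 41.1 and 43.9% of the UMIs of Paneth cells in the libraries labelled fl/fl and 36.1 and 36.5% in those labelled IEC-KO. Transcript length does not enter 3′ counts, so this scale also serves between genes. Reg4 was highest in secretory cells. In Paneth cells its level was 18.0 and 16.8 in the libraries labelled fl/fl and 102 and 90.0 in those labelled IEC-KO. In goblet cells it was 9.82, 8.45, 38.4 and 38.2. The libraries of the genotypes did not overlap in either class. In enteroendocrine cells, for which Reg4 is a marker, the level was 35.8 and 25.1 in the libraries labelled fl/fl and 64.7 and 36.8 in those labelled IEC-KO. These rested on few cells: the median enteroendocrine cell had 7.40, 5.14, 26.3 and 20.7, and the cell at the 90th percentile 66.1, 70.8, 191 and 73.9. In the libraries labelled fl/fl, enteroendocrine cells thus stood first (mean 30.5 ± 7.53 SD, n = 2), then Paneth cells (17.4 ± 0.837) and goblet cells (9.14 ± 0.966), while tuft (3.81 ± 0.067), cycling (2.95 ± 0.037) and enterocyte sums (2.90 ± 0.331) were lowest and the last pair overlapped. In those labelled IEC-KO, Paneth cells stood first (96.2 ± 8.77), and enteroendocrine cells (50.7 ± 19.8) overlapped goblet cells (38.3 ± 0.157).

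Reg3g and Reg3b were highest in enterocytes. Reg3g had a level of 108, 105, 102 and 92.5 in enterocytes, 85.3, 89.8, 70.6 and 70.9 in goblet cells, and 49.4, 48.5, 77.1 and 68.2 in Paneth cells. Enterocytes were above the other classes in every library, goblet cells were above Paneth cells in the libraries labelled fl/fl, and both classes overlapped in those labelled IEC-KO. Tuft (29.2 to 45.2 over the 4 libraries) and cycling cells (26.3 to 44.5) were lowest in the libraries labelled fl/fl, where they overlapped each other. Reg3b ran from 208, 196, 182 and 172 in enterocytes to 55.3, 54.6, 28.5 and 29.9 in goblet cells and 15.2, 15.4, 20.5 and 19.3 in Paneth cells. It was the most abundant member in enterocytes, and in Paneth cells of all 4 libraries it was below the cycling cells (27.6, 31.9, 50.7 and 34.5). Enteroendocrine sums of Reg3b scattered from 15.3 to 87.9 and overlapped most other classes.

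Reg1 and Reg3a were enterocyte genes at lower levels. Reg1 had a level of 34.9, 47.5, 34.4 and 40.9 in enterocytes and at most 1.25 in any other class and library. Few enterocytes carried most of it: the median enterocyte had 2.32, 14.3, 6.92 and 9.71, and the cell at the 90th percentile 145, 162, 108 and 107. Reg3a had 4.69, 5.43, 3.36 and 3.20 in enterocytes and at most 0.755 elsewhere, and was at 0 UMIs in the tuft cells of fl/fl 1. Reg2 and Reg3d were nearly absent. Reg2 had 0, 3, 0 and 8 UMIs in the whole libraries, where a count of 0 allows up to 3 UMIs of the library's total, and Reg3d had 11, 6, 13 and 19. No fold is given for either.

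**Figure D1:**
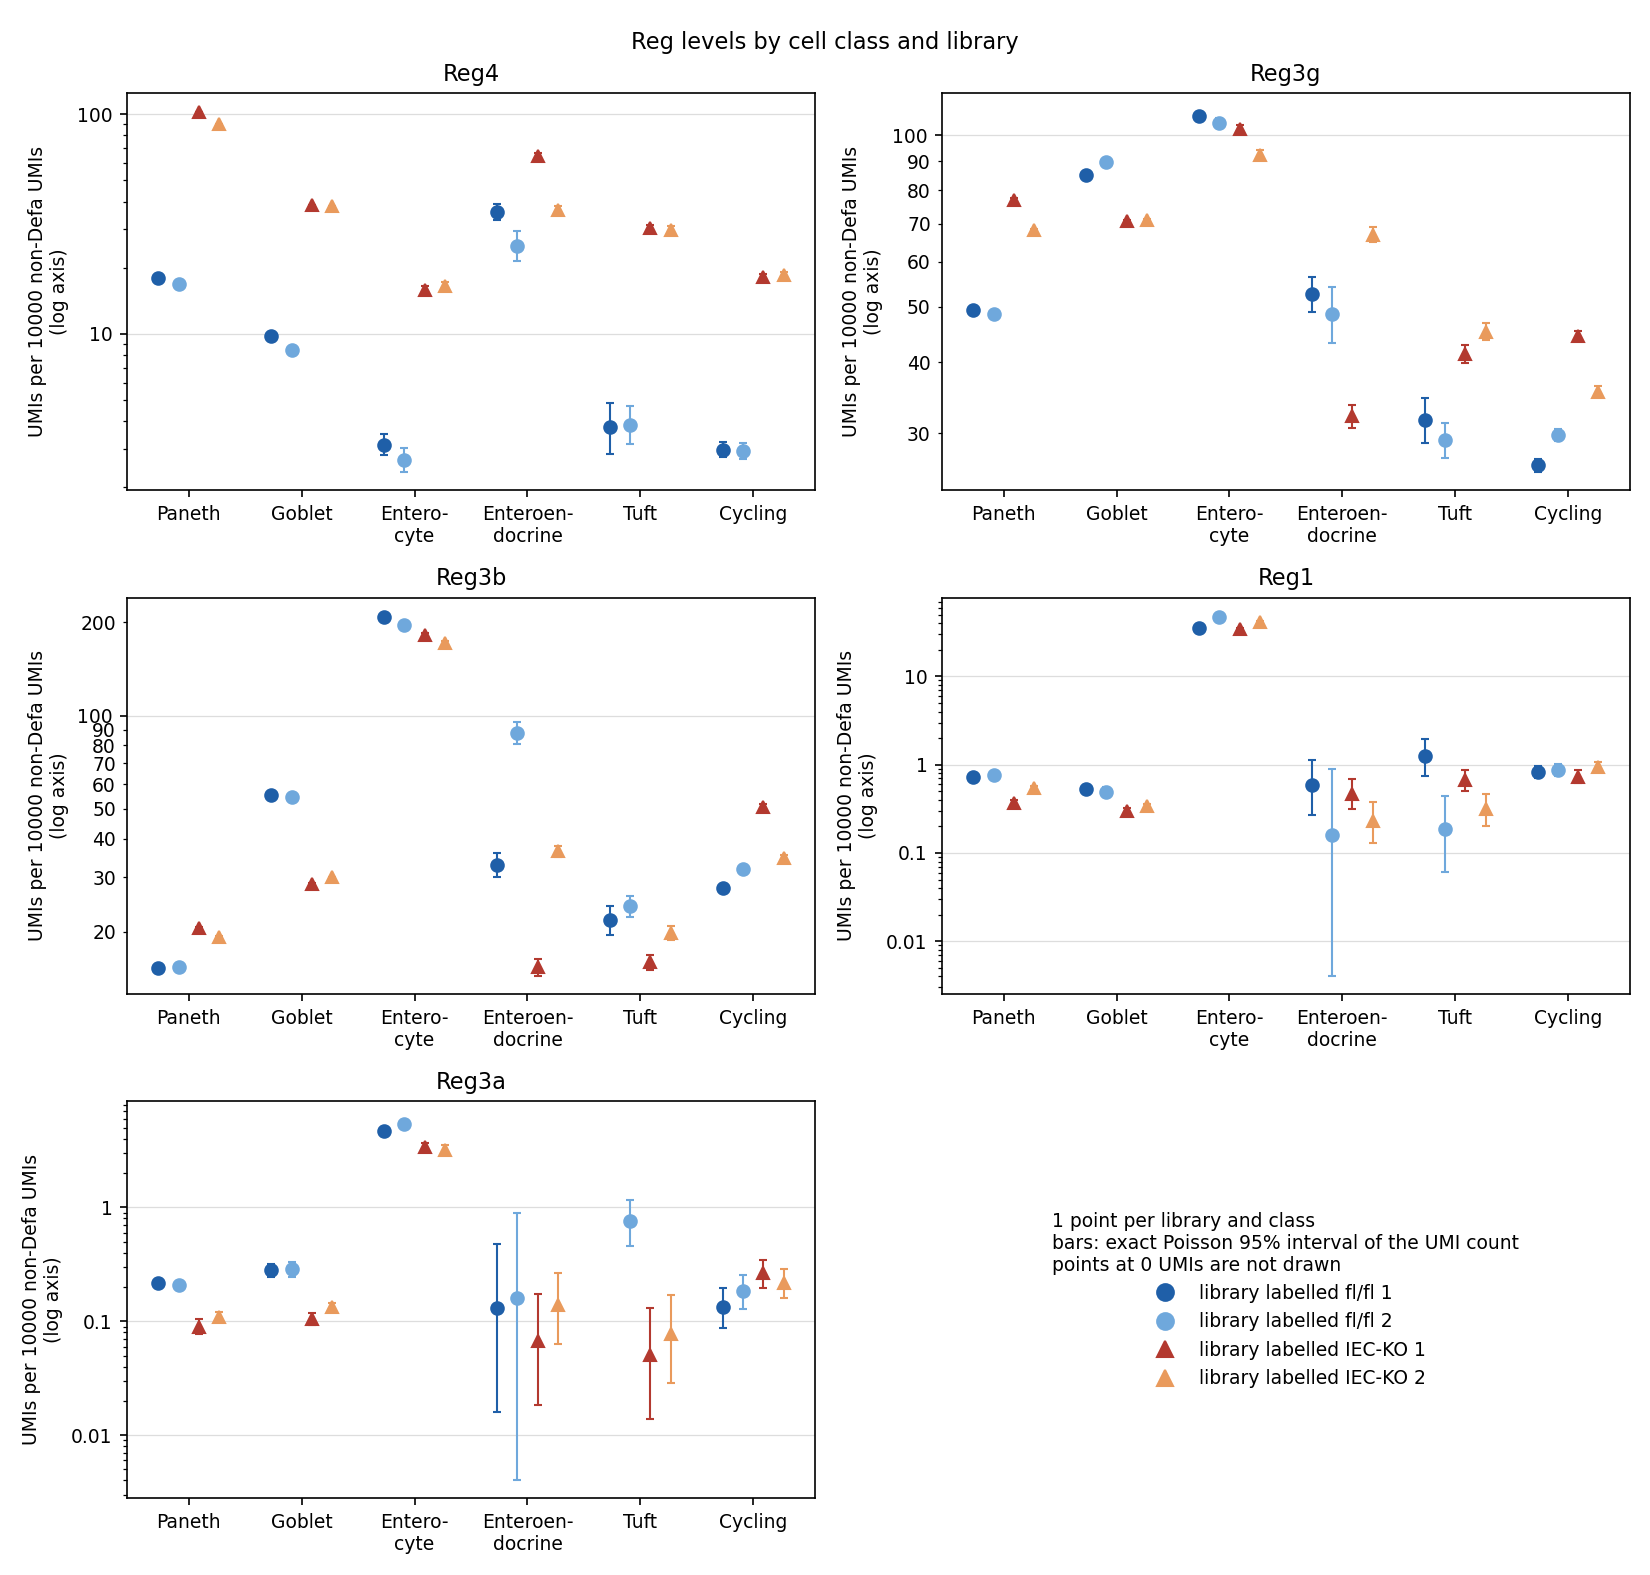
Levels of 5 members (UMIs per 10000 non-Defa UMIs, log axis) in 6 cell classes, 1 point per library labelled fl/fl (circles) or IEC-KO (triangles), with exact Poisson 95% intervals of the UMI count, which cover counting error only. Reg4 points of the libraries labelled IEC-KO lie above those labelled fl/fl in all 6 classes, and Reg3b, Reg1 and Reg3a stand highest in enterocytes.

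The level between classes was tested with both sums of each library in 1 model. Against goblet cells within the libraries labelled fl/fl, where 48.5% of all genes tested differed, Paneth cells had more Reg4 (log2 difference 1.89, standard error 0.05) and Reg1 (1.48, 0.06) and less Reg3b (-0.89, 0.05) after TMM scaling, and these 3 directions were the same with scaling by the UMIs outside Defa genes (0.93, 0.52 and -1.84). Reg1 was low in both classes and below the cycling level in every library of both genotypes. It was 0.507 to 0.891 times that level in Paneth cells and 0.362 to 0.641 times in goblet cells. Reg3a and Reg3g changed sides with the scaling, from 0.54 to -0.41 and from 0.11 to -0.84. The Reg3g call under TMM also ended without fl/fl replicate 1 (0.08, adjusted p = 0.38), without fl/fl replicate 2 (0.15, adjusted p = 0.077) and without IEC-KO replicate 1 (0.11, adjusted p = 0.069), all in edgeR. In the libraries labelled IEC-KO (48.9% of all genes), Reg4 (1.78) and Reg1 (0.99) were again higher in Paneth cells under both scalings. Reg3b did not pass there under TMM (-0.10, edgeR adjusted p = 0.060), but passed without Defa genes (-0.56), without IEC-KO replicate 1 (-0.20) and without fl/fl replicate 1 (-0.10, adjusted p = 0.0497 in edgeR). Reg3a did not pass either (0.19, edgeR adjusted p = 0.058) and was -0.27 without Defa genes. Reg3g was higher in Paneth cells by 0.49 under TMM and by 0.03 without Defa genes, which did not pass.

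Against enterocytes (41.8% of all genes called in the libraries labelled fl/fl and 47.7% in those labelled IEC-KO), Paneth cells had more Reg4 by 3.77 and 3.18 on the log2 scale and less Reg1 by -4.60 and -5.75, less Reg3a by -3.39 and -4.41, and less Reg3b by -2.54 in both. These 4 members had the same direction with scaling outside Defa genes. Reg3g did not pass under TMM (0.05 and 0.19, edgeR adjusted p = 0.73 and 0.17; without IEC-KO replicate 2 the latter was 0.24 and passed, adjusted p = 0.017 in edgeR) and was lower in Paneth cells without Defa genes (-1.12 and -0.42). Reg3d entered this fit with 1 to 6 UMIs per sum, too few for a fold.

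Paneth cell RNA was present in all classes, and Reg levels were set beside Defa. Whether it was free RNA was not tested. Where all Reg4 UMIs of a class came from RNA of the cells classed as Paneth, its ratio of Reg4 to Defa UMIs would equal theirs in the same library. Those cells were chosen by a high Defa share. Cells with an intermediate share, which are in no class, had a higher Reg4 level in every library, and their RNA would give a higher ratio. Whether a class makes Reg4 was thus not tested by this ratio. In enterocytes, tuft and cycling cells the ratio was 2.48 to 3.33 times that of Paneth cells in the libraries labelled fl/fl and 2.71 to 3.14 times in those labelled IEC-KO. Each of the 3 classes thus held more Reg4 per Defa UMI than Paneth cells, at similar ratios in both genotypes. With Lyz1, the lysozyme gene of Paneth cells, in place of Defa, the same ratios were 1.21 to 1.76 and 1.25 to 1.58. Goblet cells stood above them, at 4.99 and 5.49 against 3.46 and 3.54 by Defa, and enteroendocrine cells further above in the libraries labelled fl/fl, at 20.2 and 20.9 against 3.48 and 5.71.

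Within goblet cells, the Reg4 level followed the Defa share of the cell. With the goblet cells of a library split into 4 bins of equal size, from the lowest Defa share to the highest, Reg4 was 3.72, 4.60, 7.44 and 23.9 in fl/fl 1 and 3.28, 5.44, 7.51 and 18.1 in fl/fl 2. It was 19.6, 23.6, 35.5 and 67.9 in IEC-KO 1 and 24.2, 25.1, 37.2 and 61.5 in IEC-KO 2. The lowest bins lay close above the cycling level of their library (2.98, 2.92, 18.2 and 18.5). Taken above the cycling level, Reg4 was 14.5 in Paneth cells of the libraries labelled fl/fl and 77.8 in those labelled IEC-KO (means of 2, a ratio of 5.37), and 6.19 and 19.9 in goblet cells (3.22). Reg3g above the cycling level was 20.9 and 32.7 in Paneth cells (1.57) and 59.5 and 30.8 in goblet cells (0.518). The cycling level taken off for Reg3g was itself uneven, at 26.3, 29.8, 44.5 and 35.5. The Paneth ratios assume that background takes the same share of UMIs at any depth, which was not tested. Median UMIs were 46965, 52851.5, 13782 and 20159 in Paneth cells and 10849.5, 11878.5, 5869 and 8269 in cycling cells. For Reg1 and Reg3b the cycling level exceeded the Paneth level in all 4 libraries. For Reg3b the ratio to Defa in goblet cells was 35.2 and 36.6 times that of Paneth cells in the libraries labelled fl/fl, and for Reg3g 17.4 and 18.4 times. Reg3b was lower in the highest bin than in the lowest, at 42.9 against 66.7 in fl/fl 1 and 45.0 against 62.2 in fl/fl 2. The part that free RNA has in the change of Reg4 was not tested beyond these values.

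**Figure D2:**
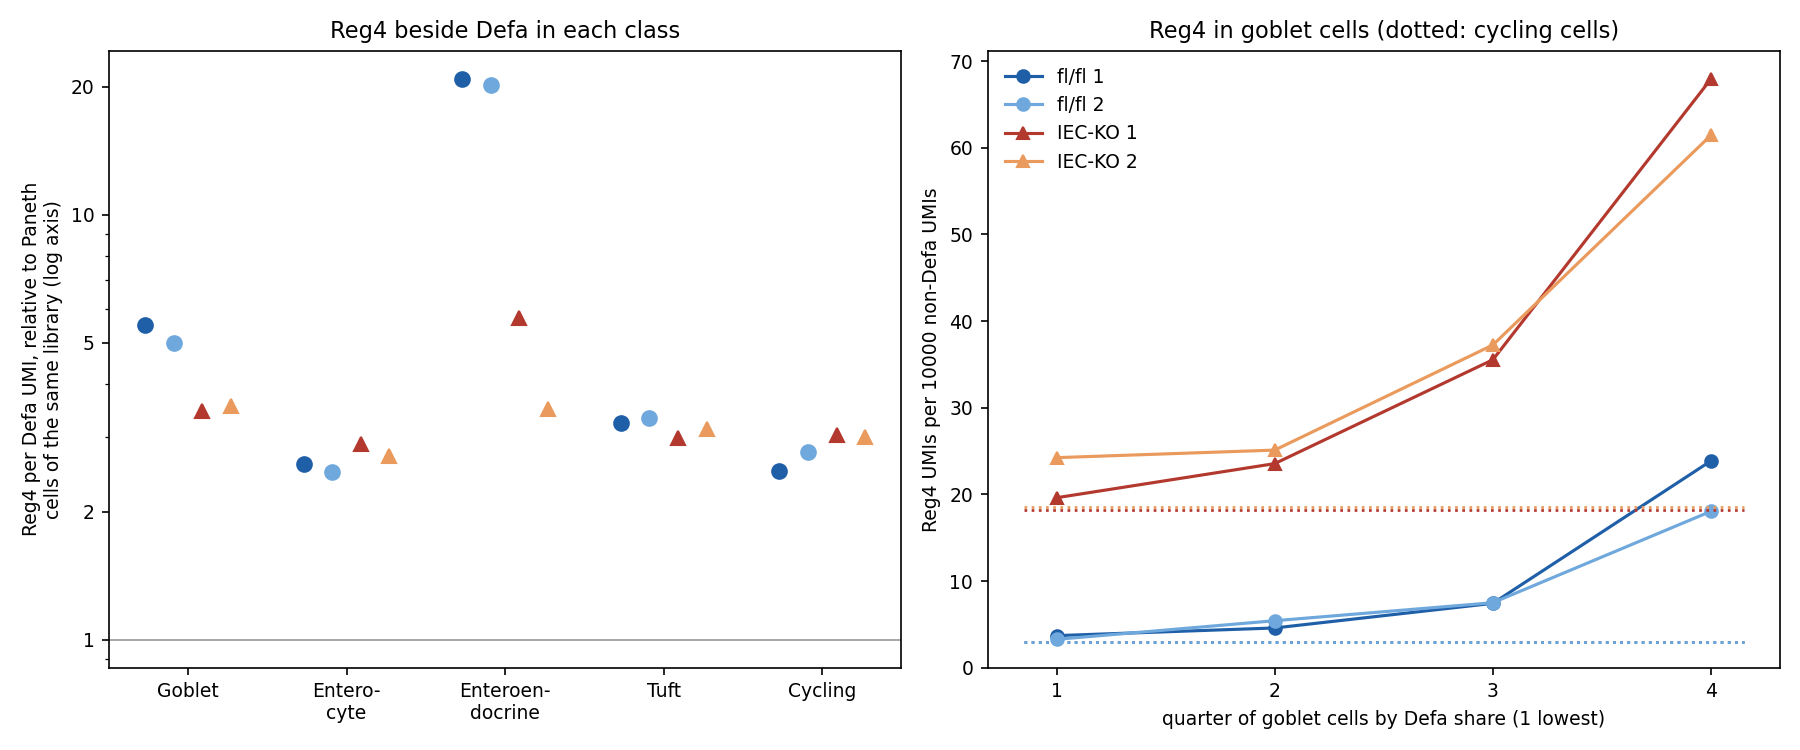
Left, the ratio of Reg4 to Defa UMIs in 5 classes relative to Paneth cells of the same library (log axis), 1 point per library; right, the Reg4 level in goblet cells in 4 bins of equal size by Defa share, with the cycling level of each library dotted. Enterocytes, tuft and cycling cells lie between 2.48 and 3.33, and the lowest goblet bins lie near the dotted lines.

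In Paneth cells, the comparison of the genotypes asks how these antimicrobial cells differ where Slc7a5 was to be deleted. Reg4 rose by 1.98 on the log2 scale (3.96-fold, standard error 0.12, edgeR adjusted p = 1.8e-11), and it was higher in both libraries labelled IEC-KO than in both labelled fl/fl. Reg3a fell by 1.56 (standard error 0.09) and Reg1 by 1.17 (standard error 0.10), both from levels under 1 per 10000 UMIs (Reg3a 0.217, 0.209, 0.0900 and 0.110, Reg1 0.721, 0.769, 0.372 and 0.548), and both lie far below the enterocyte level. Reg1 was below the cycling level in all 4 libraries (0.507 to 0.891 times it), and Reg3a was 1.62 and 1.14 times the cycling level in the libraries labelled fl/fl and 0.341 and 0.506 times in those labelled IEC-KO. Reg3b (-0.11, standard error 0.09, adjusted p = 0.40) and Reg3g (0.09, standard error 0.12, adjusted p = 0.58, both edgeR) did not pass. So 3 of 5 members tested were called, where 39.9% of all genes were called, 20.1% higher and 19.8% lower.

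The scale of this comparison matters for both Reg3 lectins. Scaling by the UMIs outside Defa genes moved the median of all genes by 0.49 on the log2 scale and gave 7711 genes higher and 640 lower (61.6% and 5.12%) against 2515 and 2475 under TMM, and scaling by library size moved it by 0.62, with 8795 higher and 454 lower. Without Defa genes, Reg3b was 0.38 and Reg3g 0.57, near that shift, with all 5 members called. By library size alone they were 0.51 and 0.70. Reg4 lay far above the shift at 2.46 and 2.60, and Reg1 (-0.68 and -0.55) and Reg3a (-1.07 and -0.94) far below it.

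Cells thinned to 2000 UMIs showed the same for Reg4. The share of Paneth cells with a Reg4 UMI was 83.9 and 80.9% in the libraries labelled fl/fl and 100 and 99.96% in those labelled IEC-KO. With at least 3 UMIs the mean share went from 32.9 to 98.8% in Paneth cells and from 19.2 to 76.4% in goblet cells. In cycling cells, which should lack Reg4, the share with 1 UMI was 38.0 and 45.5% against 90.2 and 94.0%. The median depth before thinning was 5869 to 11878.5 UMIs in cycling cells and 13782 to 52851.5 in Paneth cells. Reg3b was found in 79.8, 79.5, 80.9 and 84.2% of thinned Paneth cells and in 69.0, 76.6, 78.4 and 81.3% of cycling cells. Exact permutation over 2 against 2 libraries cannot go below p = 0.333, two-sided.

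In goblet cells Reg4 rose and the 4 other members tested fell, against a background of 20.1% of genes called (10.4% higher, 9.73% lower). For Reg4 the rise was 2.08 on the log2 scale (4.24-fold, standard error 0.08, edgeR adjusted p = 7.1e-14). Reg3b fell by 0.90 (standard error 0.07, edgeR adjusted p = 6.2e-09), with 55.3 and 54.6 in the libraries labelled fl/fl against 28.5 and 29.9. Reg3a fell by 1.22 (standard error 0.12) and Reg1 by 0.67 (standard error 0.09), at levels of 0.106 to 0.288 and 0.301 to 0.536. Goblet Reg1 was below the cycling level in all 4 libraries (0.362 to 0.641 times it). Reg3a and Reg3b were above it in both libraries labelled fl/fl and below it in both labelled IEC-KO (Reg3b 2.005 and 1.712 against 0.562 and 0.867 times). The cycling level of Reg3b was uneven over cells, at means of 29.7 in the libraries labelled fl/fl and 42.6 in those labelled IEC-KO. Only 29.0 and 43.3% of thinned cycling cells had at least 3 Reg3b UMIs. Some cycling cells thus carried much of it, and its mean is not a background that all cells share alike. How much of the falls of Reg1, Reg3a and Reg3b lies in goblet cells themselves was not tested. Reg3g fell by 0.29 (standard error 0.07, edgeR adjusted p = 0.0054), a call that ended without fl/fl replicate 1 (-0.32, adjusted p = 0.16 in edgeR) and without fl/fl replicate 2 (-0.25, adjusted p = 0.32 in edgeR).

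In enterocytes, where 1.47% of genes were called (0.962% higher, 0.503% lower), 2 of 5 members tested passed. Reg4 rose by 2.50 (standard error 0.10, edgeR adjusted p = 2.0e-11) from a level of 3.14 and 2.67 to 15.8 and 16.5, close to that of cycling cells in the same libraries. Reg3a fell by 0.60 (standard error 0.10, edgeR adjusted p = 0.0025). Both calls ended without fl/fl replicate 1 (Reg4 2.62, adjusted p = 0.37; Reg3a -0.70, adjusted p = 0.68) and without fl/fl replicate 2 (2.39 and -0.49, adjusted p = 0.80 for both, edgeR), where no gene of the table passed, and the Reg3a call ended with no filter on low counts (adjusted p = 0.46). Reg3b (-0.17, standard error 0.07), Reg3g (-0.11, 0.08) and Reg1 (-0.11, 0.12) did not pass.

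Enteroendocrine cells were few. Of the 4 members tested 0 passed edgeR's adjusted threshold (0.366% of all genes did, 0.183% in each direction), 2 had an unadjusted p below 0.05, and DESeq2 gave the same counts. On the log2 scale Reg4 differed by 0.86 (standard error 0.30) and Reg3b by -1.05 (standard error 0.42), with adjusted p = 0.50 and 0.58 in edgeR. Without fl/fl replicate 1, which leaves 5 cells labelled fl/fl, Reg4 (1.29) and Reg3b (-1.50) passed, and with no filter on low counts Reg4 passed (1.05, edgeR adjusted p = 0.0022).

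Tuft and cycling cells served as the background classes, though 7, 9, 59 and 49 of the tuft cells were also above the goblet limit. Tuft Reg4 was 1.26, 1.32, 1.66 and 1.60 times the cycling level. In tuft cells (3.71% of genes called, 2.39% higher and 1.32% lower) Reg4 rose by 3.13 (standard error 0.14) and Reg3g by 0.67 (standard error 0.12, edgeR adjusted p = 1.5e-04, ended by thinning to 2000 UMIs at 0.66 and adjusted p = 0.082), and Reg3b (-0.21) and Reg1 (-0.09) did not pass, so 2 of 4 members were called. In cycling cells (2.66% of genes called, 1.91% higher and 0.747% lower) Reg4 rose by 2.68 (standard error 0.08), Reg3g by 0.56 (standard error 0.08) and Reg3b by 0.56 (standard error 0.10, edgeR adjusted p = 0.0011, but 0.9996 in DESeq2 at the same 0.56, and a log2 fold change of 0.27 without IEC-KO replicate 1), so 3 of 5 members were called. Reg3a (0.64) and Reg1 (0.04) did not pass. Reg4 thus rose in enterocytes, tuft and cycling cells, which are not known to make it, as well as in Paneth and goblet cells.

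**Figure D3:**
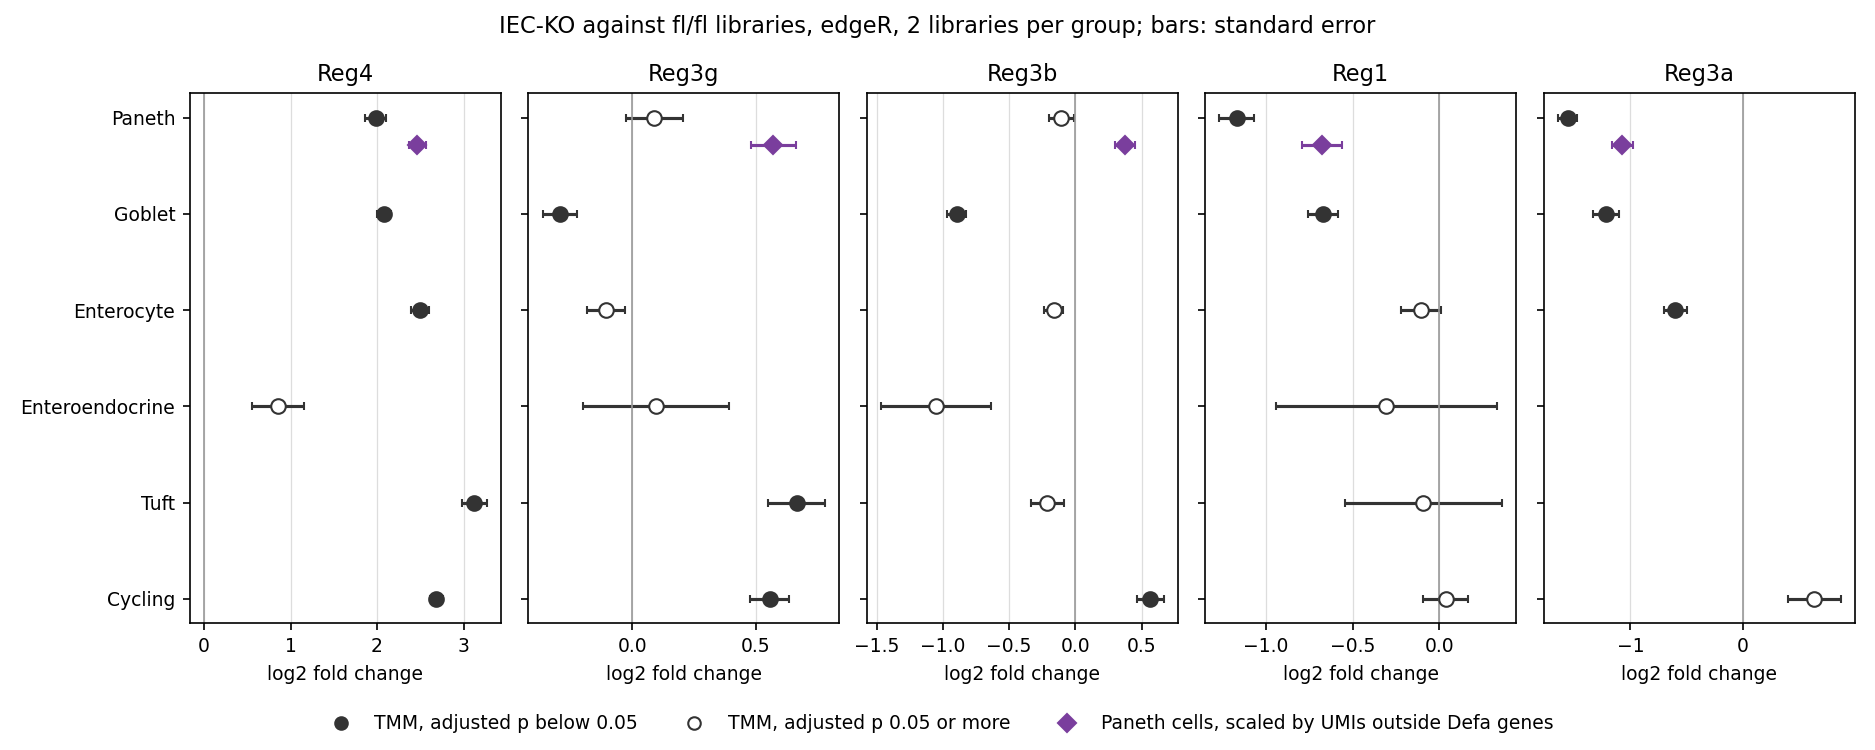
Log2 fold changes of 5 members in 6 classes, libraries labelled IEC-KO against fl/fl (edgeR, 2 libraries per group, bars standard errors), filled where the adjusted p was below 0.05, with diamonds for Paneth cells scaled by UMIs outside Defa genes. Reg4 lies between 0.86 and 3.13 in all classes, and Reg3b lies at -0.11 or, by the other scaling, 0.38 in Paneth cells and at -0.90 in goblet cells.

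Whether the change differed between classes was tested in itself. Reg1 in Paneth and goblet cells, and Reg3b in Paneth cells, were below the cycling level in every library, which limits what these tests show. The change of Reg3b in Paneth cells was higher than that in goblet cells by 0.79 (standard error 0.07, edgeR adjusted p = 6.1e-23) and that of Reg3g by 0.38 (standard error 0.07, edgeR adjusted p = 3.3e-06), where 13.5% of all genes differed, and both were larger without Defa genes (1.29 and 0.87). The change of Reg4 did not differ under TMM (-0.11, adjusted p = 0.35 in edgeR) and was higher in Paneth cells without Defa genes (0.39). Reg1 (-0.49) and Reg3a (-0.35) differed under TMM, but not without Defa genes (0.01 and 0.15). The Reg3a call also ended without fl/fl replicate 1 (-0.33, adjusted p = 0.20), without fl/fl replicate 2 (-0.38, adjusted p = 0.070) and without IEC-KO replicate 2 (-0.31, adjusted p = 0.27 in edgeR).

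Against enterocytes (7.14% of all genes differed), the change in Paneth cells was lower for Reg3a (-1.02) and Reg1 (-1.15) under both scalings (-0.45 and -0.60 without Defa genes). It was lower for Reg4 under TMM (-0.59, standard error 0.17, edgeR adjusted p = 0.024), a call that ended without Defa genes (-0.02) and without fl/fl replicate 2 (-0.50, adjusted p = 0.17 in edgeR). Reg3b (-0.005, standard error 0.16) and Reg3g (0.13, standard error 0.16) did not differ past the threshold under TMM and did without Defa genes (0.56 and 0.70).

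Over all cells ordered by their Defa share, whatever their class, Reg4 was highest in cells with an intermediate share and Reg3b in those with the lowest. Reg4 went from 4.16 and 3.50 in cells under 5% Defa to 35.6 and 32.5 in those at 20 to 30% and came down to 15.9 and 16.0 at 40 to 50% in the libraries labelled fl/fl. In those labelled IEC-KO it went from 22.2 and 23.9 to 110 and 94.8 and then to 87.4 and 74.0. The cells at 20 to 30%, which enter no class, were thus the highest in the libraries labelled fl/fl, while in those labelled IEC-KO they were close to the cells at 30 to 40% (107 and 94.5). Reg3b went from 72.4, 73.4, 43.5 and 41.1 under 5% Defa to 15.5, 14.9, 17.7 and 16.4 at 40 to 50%. At the low end Reg3b was higher in the libraries labelled fl/fl, and the libraries overlapped at 20 to 30% (25.1, 29.5, 27.9 and 28.6). At 40 to 50% it was slightly higher in those labelled IEC-KO. The median Defa share of goblet cells was 4.69, 5.24, 2.97 and 3.79%, so the bin under 5% holds unlike parts of that class. Reg3g was alike in all libraries under 5% (66.7 to 71.1) and differed at 30 to 40% (37.7 and 40.7 against 78.2 and 68.1).

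**Figure D4:**
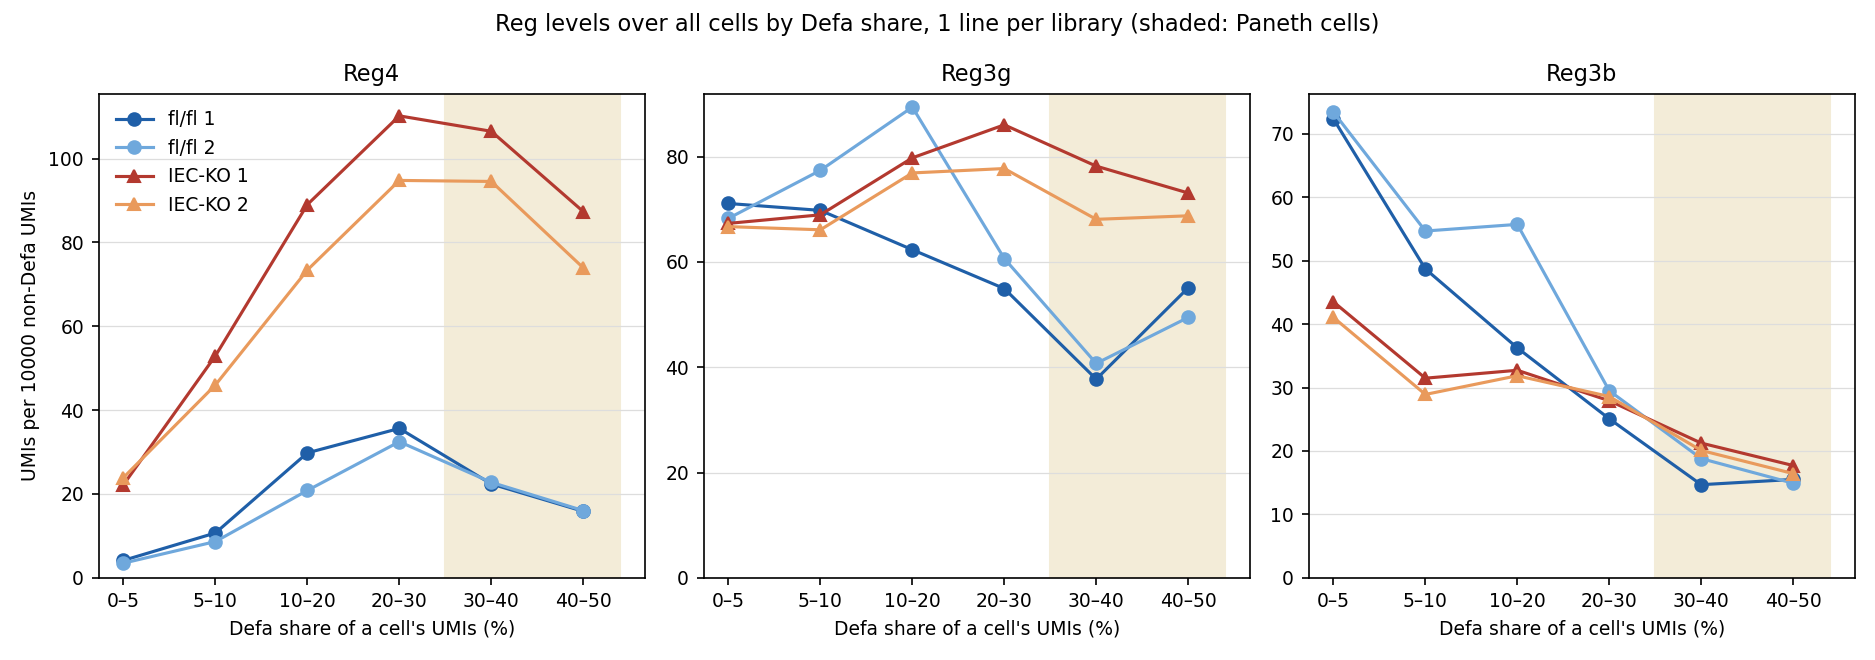
Levels of Reg4, Reg3g and Reg3b (UMIs per 10000 non-Defa UMIs) by the share of Defa genes in a cell's UMIs, 1 line per library, Paneth cells shaded. Reg4 is highest at 20 to 30% Defa in every library, close to its level at 30 to 40% in those labelled IEC-KO, and Reg3b is higher under 5% Defa than at 40 to 50% in all 4.

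From cell to cell within a class, Reg3b and Reg3g varied together. On thinned cells their Spearman rho was 0.72 to 0.79 over the 4 libraries in enterocytes, 0.59 to 0.77 in goblet cells and 0.17 to 0.34 in Paneth cells, a description without a test, as cells of a library share its RNA background. Reg1 ran weakly against Reg3b among enterocytes, with a rho of -0.31 to -0.15. Nearly all thinned enterocytes had a Reg3b UMI, so this is a trend in amount and does not separate cells with Reg1 from cells with Reg3b. In the same class the rho of Reg1 was 0.29 to 0.38 with Fabp1, a fatty acid binding protein of absorptive cells. It was 0.22 to 0.26 with Apoa4, an apolipoprotein of chylomicrons. Reg3g had a rho of 0.21 to 0.28 with the mucin gene Muc2 in goblet cells, and Reg3b 0.10 to 0.14. Reg4 stayed between -0.18 and 0.07 with either Reg3 gene in all 3 classes. Its rho with Defa was 0.33 to 0.47 in goblet cells and -0.32 to -0.29 in Paneth cells. Paneth cells were chosen by their Defa share and thinned to a fixed total, of which Defa took a large part. More Defa UMIs then leave fewer for other genes, and how far this lowers the rho was not tested.

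Across the 24 sums of 6 classes and 4 libraries, the genes most like Reg4 in level (Pearson r of log2 CPM, 6247 genes compared) were the neutral amino acid transporter gene Slc1a4 (0.93), the lysosomal protease gene Lgmn (0.88), the stress response gene Nupr1 (0.87), 1810008I18Rik (0.87) and Ly6e (0.86). Nupr1 was among the markers used to check Paneth cells. Those most like Reg3b were Iqgap2 (0.93), Rfk, the riboflavin kinase gene (0.92), Fabp2 (0.91), Lypd8, an antibacterial surface protein of enterocytes (0.91), and Ogdh (0.91). Those most like Reg3g were Mcur1 (0.87), P4hb, a protein disulfide isomerase (0.83), Fam3b (0.79), the cargo receptor gene Surf4 (0.75) and 1810055G02Rik (0.74). Among the members, Reg3b had an r of 0.82 with Reg3a, 0.77 with Reg1, 0.65 with Reg3g and -0.40 with Reg4. The sums share libraries and Paneth cell RNA, so these values are descriptions.

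Genes around the lectins were taken from lists. Changes in this and the next paragraphs are log2 fold changes under TMM. Of the receptors and partners proposed for Reg proteins, 2 of 3 were called higher in Paneth cells of the libraries labelled IEC-KO, Egfr (1.33, standard error 0.13) and the proposed Reg receptor Extl3 (0.36, 0.13), and Il6st, the shared receptor chain gp130, did not pass (0.32, 0.15), where 20.1% of all genes were higher. With scaling outside Defa genes all 3 were higher (Il6st 0.81), as were 61.6% of all genes. The median of the list was 0.36, and that of all genes under TMM was near 0. In goblet cells 1 of 3 was called, Egfr (0.65, 0.22), where 10.4% of all genes were higher. None of the 3 was counted high enough to be tested in enterocytes.

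Of 17 receptors and signalling genes that induce Reg3 lectins, 6 were called higher and 1 lower in Paneth cells (median 0.23), against 20.1% and 19.8% of all genes. The IL-17 receptor gene Il17ra (0.53), the TLR adaptor Myd88 (0.47), the STAT3 feedback inhibitor Socs3 (0.44), the NF-kB subunit Rela (0.36), Irak1 (0.28) and Stat3 (0.23) were higher and the kinase gene Tyk2 (-0.60) was lower. In goblet cells 1 of 16 passed, Traf6 (0.60, median of the list 0.04), where 10.4% of all genes were higher and 9.73% lower. In enterocytes 0 of 8 passed edgeR's adjusted threshold, where 1.47% of all genes did, and 0 had an unadjusted p below 0.05. With scaling outside Defa genes, which moved the median of all Paneth cell genes by 0.49, 14 of the 17 were higher and 0 lower in Paneth cells (median 0.72, with 61.6% of all genes higher and 5.12% lower), and Tyk2 was -0.11 (edgeR adjusted p = 0.60).

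Of the other genes known to be induced along with Reg3 lectins, 15 of 19 were tested in Paneth cells, with 7 higher and 4 lower (median 0.15), against 20.1% and 19.8% of all genes. The 10 with the largest changes were the acute phase gene Saa3 (2.88), Sprr2a3 (1.84), the resistin-like gene Retnlb (1.71), the siderophore binding gene Lcn2 (1.70), Muc1 (1.65) and Sprr2a1 (1.63), which were higher, and Ido1 (-2.55), Saa1 (-1.55), the cytokine gene Il18 (-1.25) and Ccl28 (-0.77), which were lower. These 10 had the same directions with scaling outside Defa genes, where 10 members were higher and 4 lower (median 0.63), a share of higher ones near the 61.6% of all genes. In goblet cells 7 were higher and 3 lower of 15 (median 0.25), where 10.4% and 9.73% of all genes were. Saa3, Sprr2a1, Lcn2, Sprr2a2 and Nos2 were called higher from 0 to 3 UMIs per library labelled fl/fl, too few for a fold. Of the others Sprr2a3 (3.67) and Retnlb (0.80) were higher and Saa1 (-1.24), Ccl28 (-0.43) and Pigr (-0.22) lower. In enterocytes 1 of 8 passed, Retnlb (3.07), a goblet cell product, where 0.962% of all genes were higher.

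Most other antimicrobial and lectin genes fell in Paneth cells under TMM: 11 of 15 were lower and 2 higher (median -0.37), against 19.8% and 20.1% of all genes. Lyz2 (-1.87), Lyz1 (-1.69), the mucosal pentraxin gene Mptx2 (-1.63), the angiogenin Ang4 (-1.60), and the lectin genes Zg16 and Lgals3 (-1.0 each) were lower, and Retnlb and Mptx1 (0.87) were higher. With scaling outside Defa genes 7 were lower and 6 higher (median 0.12, against 5.12% and 61.6% of all genes), and the 6 genes just named as lower had the same direction, from Lyz2 (-1.38) to Lgals3 (-0.51). In goblet cells 8 were lower and 3 higher of 15 (median -0.23), and in enterocytes 3 lower (Ang4 -1.57, Mptx2 -1.36, Lyz1 -1.20) and 2 higher (Itln1 0.40 and Retnlb) of 13 (median 0.05). Of all genes, 9.73% were lower and 10.4% higher in goblet cells, and 0.503% and 0.962% in enterocytes. Ang4, Mptx2 and Lyz1 are Paneth cell products, so their fall was also found in classes that do not make them. Among proteases, the alpha-defensin processing gene Mmp7 rose (0.40) and Pcsk5 fell (-0.72, but -0.23 without passing when scaled outside Defa genes) in Paneth cells. The trypsin gene Try5 was also called higher in Paneth and goblet cells, from a level near 0 in the libraries labelled fl/fl, and Mmp7 rose by 0.92 in enterocytes.

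**Figure D5:**
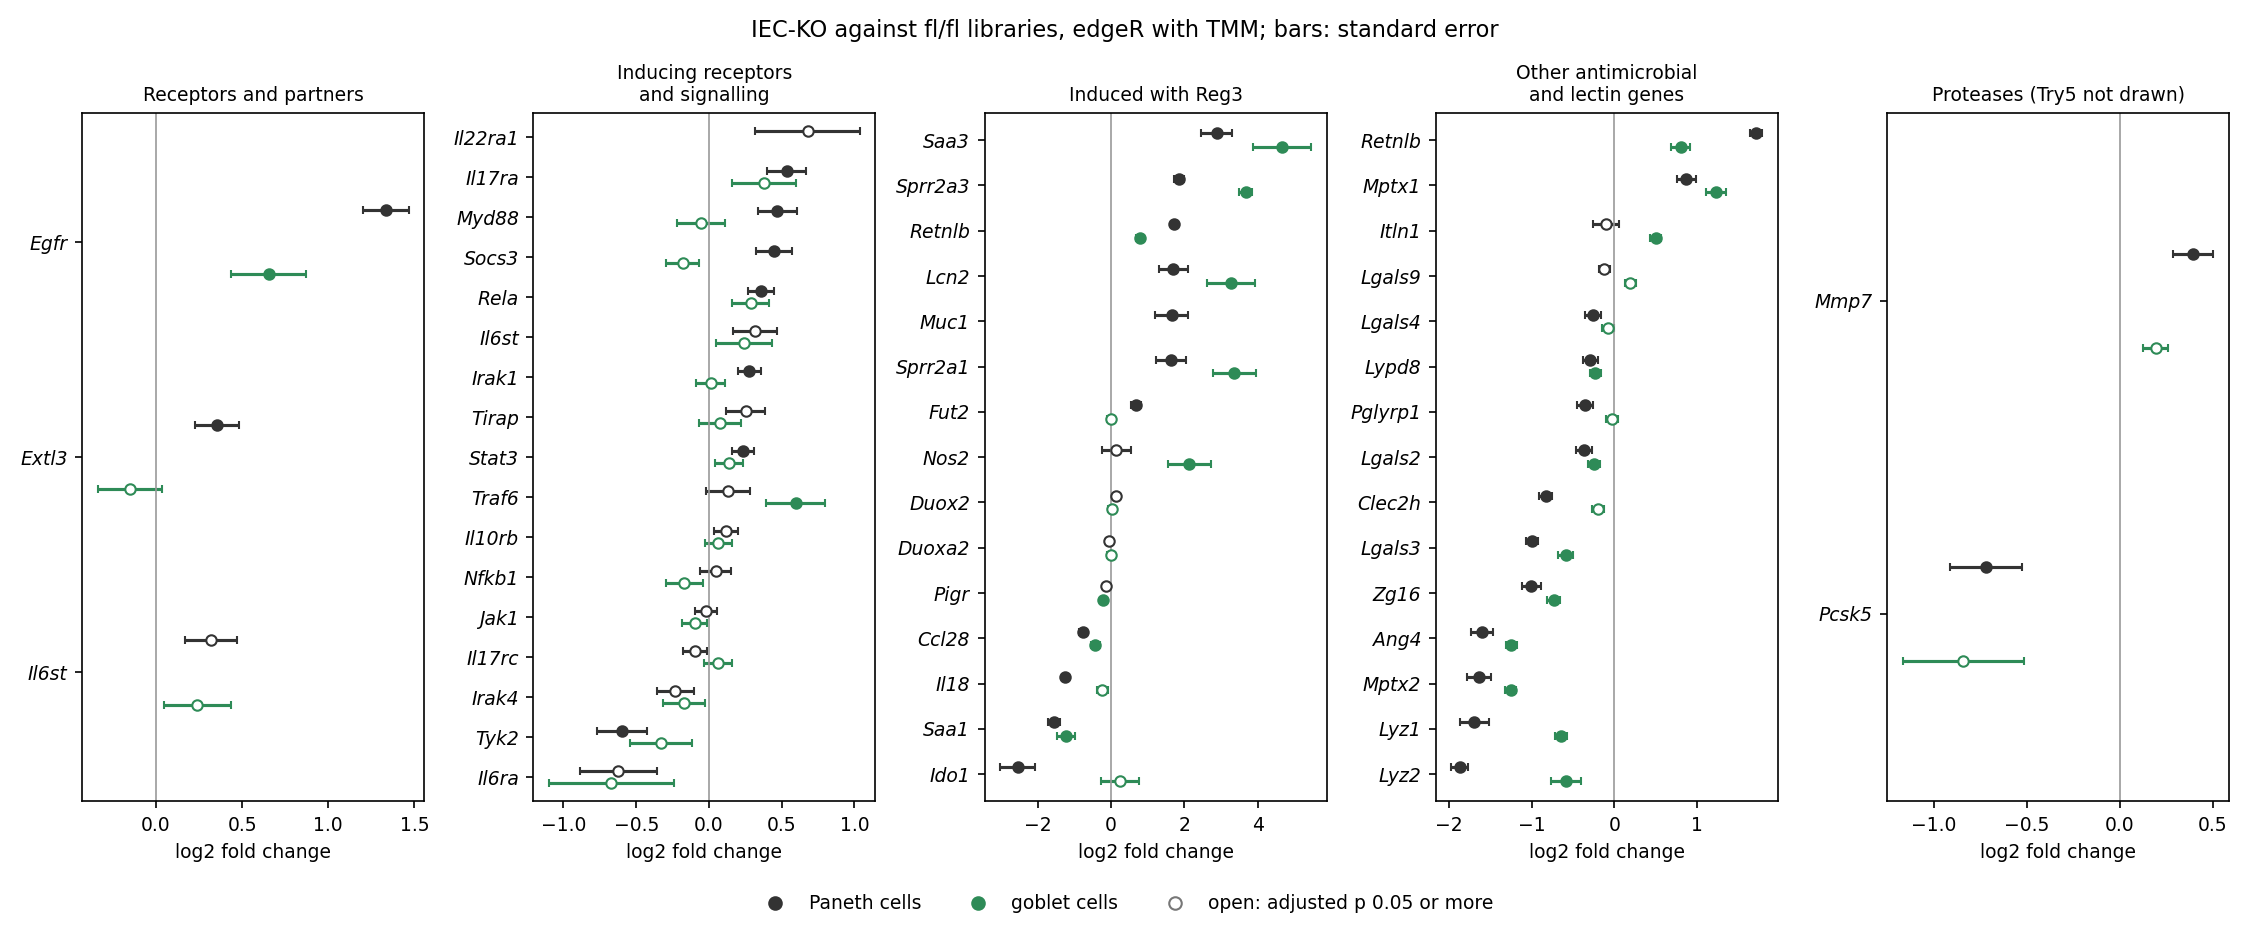
Log2 fold changes in Paneth (black) and goblet cells (green) of the listed genes tested in Paneth cells, libraries labelled IEC-KO against fl/fl (edgeR with TMM, bars standard errors), open where the adjusted p was 0.05 or more. Sprr2a3 and Retnlb lie to the right in both classes, and Lyz1, Ang4 and Mptx2 to the left.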

How the data were processed

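UMI counts per gene and cell were deposited by the authors as matrices of filtered barcodes, 1 per library, from Cell Ranger 2.1.1 and the mm10 genome per the submitters' notes. They were not normalized. Libraries shared at most 132 barcodes. Doublets were not called. The 7 members are named by symbol, and the members and lists were chosen with earlier results of these data known. Cells were classed by 13 Defa genes (30% or more of UMIs for Paneth cells, under 20% for the others) and by marker UMIs per 10000 outside Defa genes (at least 300 goblet, 100 enterocyte, 50 enteroendocrine, 8 tuft and 10 cycling, with at least 3 marker UMIs), limits set after the scores had been seen. UMIs were summed per library and class and tested in edgeR 4.0.16 (quasi-likelihood, TMM, filterByExpr, Benjamini-Hochberg over all genes, threshold 0.05) under R 4.3.3. Classes were compared with library as a block. Intervals cover counting error only. Genes named are the members, the 5 genes most like each of Reg3b, Reg3g and Reg4 (mean of at least 10 CPM), and up to 10 called genes per list, largest change first. The fits were tested on simulated counts. Alternatives were DESeq2 1.42.0, other scalings, filters, class limits, thinning to 2000 UMIs, a replicate block and leaving out each library.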

Additional observations from a re-analysis of the deposited data

Results flagged for a closer look

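The change between genotypes differed between classes in 7 of the tests of the difference itself (log2, edgeR with TMM, library as a block). Of all genes tested, 13.5% differed in the test against goblet cells and 7.14% in that against enterocytes. Against goblet cells, the change in Paneth cells was higher by 0.79 for Reg3b and 0.38 for Reg3g and lower for Reg1 (-0.49) and Reg3a (-0.35). Against enterocytes it was lower for Reg4 (-0.59), Reg3a (-1.02) and Reg1 (-1.15). In Paneth cells, Reg1 and Reg3b were below the cycling level in every library (0.507 to 0.891 and 0.404 to 0.558 times it). Paneth Reg3a was below it in both libraries labelled IEC-KO (0.341 and 0.506 times). Goblet Reg1 was below it in every library, and enterocyte Reg4 was 0.867 to 1.05 times it. The part that background has in these differences was not tested. With scaling by UMIs outside Defa genes, the differences for Reg3b and Reg3g against goblet cells (1.29 and 0.87) and for Reg3a and Reg1 against enterocytes (-0.45 and -0.60) passed in the same direction, and those for Reg1 and Reg3a against goblet cells (0.01 and 0.15) and Reg4 against enterocytes (-0.02) did not pass.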

How the results depend on the processing

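Of the alternatives that leave out no library, 220 log2 values of single members kept their direction and side of the threshold, 17 changed sign, 5 lost and 6 gained a call. Counts of members called are not among these values and were judged apart, as moved beyond 1.5 times. Members called went from 3 to 5 in Paneth cells by library size alone and outside Defa genes, from 2 to 1 in enterocytes and from 0 to 1 in enteroendocrine cells with no filter, and from 2 to 1 in tuft cells after thinning. Calls over all Paneth cell genes went from 4990 of 12492 to 9249 of 12492 and 8351 of 12510 in these settings. They went from 99 of 6754 to 10 of 13196 in enterocytes and from 14 of 3820 to 56 of 13020 in enteroendocrine cells. In tuft cells they went from 180 of 4857 to 18 of 1348. Leaving out 1 library, which assumes that the lone sample of a group varies like the others, gave 3 members called in Paneth and in cycling cells, 2 in tuft cells, 4 to 5 in goblet cells, 0 to 2 in enterocytes and in enteroendocrine cells, 3 to 4 and 2 to 3 differing in change against goblet cells and enterocytes, and 3 to 5 differing in level.

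Signs turned for some values. The changes by genotype within a class that turned had not passed under TMM. These were Reg3b in Paneth cells (0.51 by library size, 0.38 outside Defa genes, where it passed), Reg3g there (-0.032 to 0.21 with 1 library left out), Reg1 in enterocytes (-0.31 to 0.14 with 1 left out), in enteroendocrine cells (-0.68 to 1.38), in tuft cells (-1.16 to 1.53) and in cycling cells (-0.17 to 0.21, and -0.054 without the 5% of cells with most UMIs), and Reg3g in enteroendocrine cells (-0.51 to 0.51 with 1 left out, -0.27 under the goblet limit, -0.042 by library size, -0.13 under 10% Defa, -0.097 thinned, -0.19 without the 5% of cells). Outside Defa genes, the difference in change against goblet cells turned for Reg4 (0.39), Reg3a (0.15) and Reg1 (0.0093), of which Reg3a and Reg1 had passed under TMM. Against enterocytes it turned for Reg3b (0.56, and -0.078 to 0.067 with 1 left out). The level against goblet cells turned for Reg3a (-0.41 and -0.27 by genotype) and Reg3g (-0.84), and against enterocytes for Reg3g (-1.12 and -0.42). These levels too include values that had passed under TMM, such as Reg3g against goblet cells in the libraries labelled fl/fl. With 1 library left out, the Reg3b level against goblet cells ran from -0.20 to 0.0046 in the libraries labelled IEC-KO, and the Reg3d difference in change against enterocytes, on few UMIs, from -0.094 to 0.65.

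The share of Paneth cells with a Reg3b UMI differed by -0.120 percentage points in whole cells against 2.90 thinned, and that of goblet cells with Reg3g by -0.0224 in whole cells and -1.57 at 3 UMIs against 0.0746. By Lyz1 in place of Defa the Reg4 ratio was 3.31 against 5.24 and 1.71 against 3.50 in goblet cells and 1.29 against 2.63 and 1.44 against 3.01 in cycling cells. Calls over all genes moved by more than 1.5 times from 4990 in Paneth, 2290 in goblet, 99 in enterocyte, 14 in enteroendocrine, 180 in tuft and 228 in cycling cells to 3123, 1123, 51, 8, 48 and 68 in DESeq2 and to 1360, 805, 26, 7, 18 and 78 after thinning. They moved to 9249 (library size) and 8351 (outside Defa genes) in Paneth cells, to 10, 56 and 95 in enterocyte, enteroendocrine and tuft cells with no filter, to 23 and 142 in enteroendocrine and cycling cells under 10% Defa, and to 9 in enteroendocrine cells without the 5% of cells with most UMIs. With 1 library left out they were 1388 in goblet cells (fl/fl 1), 0 in enterocytes (either fl/fl), 56, 53 and 23 in enteroendocrine cells (fl/fl 1, fl/fl 2, IEC-KO 1) and 82 and 116 in tuft cells (fl/fl 2, IEC-KO 2).

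Same-numbered libraries did not deviate together in Paneth cells (r = 0.0056 over 4146 genes). This value comes from 1 class and cannot show whether the numbers pair libraries. The replicate block left 3 members called in Paneth cells, and gave 223 genes in enterocytes and 372 in cycling cells, from 99 and 228 without it. The causes of these changes were not tested. Not run were Paneth cells at 50% Defa, which 1 library alone held, and subtraction of the cycling background for Reg1 and Reg3b, where the amount to take off exceeded the UMIs measured in all 4 libraries, for Reg3a, where it did in both labelled IEC-KO, and for Reg2 and Reg3d, which had at most 6 UMIs in Paneth cells of a library. The 5 to 83 enteroendocrine cells per library limit what can be said of that class.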

Other observations

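In the libraries labelled IEC-KO, 542 and 836 Paneth cells had a UMI of the trypsin gene Try5 and 1477 and 1500 had none. Both kinds of cell had close Reg levels. With and without Try5, Reg4 was 104 and 102 per 10000 UMIs outside Defa genes in IEC-KO 1 and 87.8 and 91.5 in IEC-KO 2. Reg3g was 77.6 and 76.9 and 68.7 and 67.9, and Reg3b was 20.1 and 20.7 and 18.4 and 19.9. Over all cells of each library, those in no class included, the member sums had log2 fold changes of 1.56 for Reg4, -1.16 for Reg3a and -0.69 for Reg1. Reg3b had -0.22 (edgeR adjusted p = 0.039) and Reg3g -0.08 (edgeR adjusted p = 0.54), in libraries whose share of Paneth cells differed. These values are under TMM, with factors of 0.788 and 0.711 in the libraries labelled fl/fl and 1.35 and 1.32 in those labelled IEC-KO. Per UMI of the library, Reg1, Reg3b and Reg3g were higher in both libraries labelled IEC-KO than in both labelled fl/fl. Leaving out the factors moves every gene up in the libraries labelled IEC-KO. The share of all genes that were higher in this way was not counted. The direction of Reg1, Reg3b and Reg3g here thus depends on the scaling, while Reg4 and Reg3a kept theirs.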
